A study of Mus musculus with 2 samples.

Results

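The collagen-rich spots are the places of a mouse skin section where fibroblast matrix transcripts took the largest share of the captured RNA. In each of 2 sections, spots with at least 500 unique molecular identifiers (UMIs, the tags of single captured molecules) were ranked by the share of their UMIs from 6 genes, Col1a1, Col1a2, Col3a1, Dcn, Lum and Sparc, and the 100 highest were taken. The spots were thus selected on the measured values of these 6 genes, and 200 of the 2263 spots over tissue belong to them. Of the 1282 tissue spots of the S1pr2fl/fl section 1096 passed the UMI minimum, which left 996 remaining spots beside the 100. Of the 981 tissue spots of the S1pr2fl/fl K14-Cre section 947 passed, which left 847.

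Both sections came from back skin, embedded in paraffin after formalin fixation, of mice aged 8 weeks that were given 62.5 mg of 5% imiquimod (IMQ) cream each day for 7 days after depilation. Both genotypes carried floxed S1pr2 alleles, written S1pr2 f/f in the sample labels. In the K14-Cre mouse the Cre recombinase was driven by the keratin 14 promoter, which is active in keratinocytes, so the deletion was aimed at the epidermis and not at the fibroblasts described here, while the S1pr2fl/fl mouse carried no Cre. There was 1 section per genotype, and therefore no spread between animals, no test and no p-value. Each value is the sum of UMIs over a set of spots scaled to 1000000 UMIs of that set (CPM), and its interval (95%, exact Poisson for CPM, conditional binomial for ratios) covers counting error only.

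Dermal fibroblasts build the skin's matrix from fibrillar collagens, which give it strength, from small proteoglycans that sit on the collagen fibrils and set their spacing, and from elastic fibres and adhesive glycoproteins. Fibroblasts of the papillary dermis, the reticular dermis and the deeper fascia express partly different genes, and in inflamed skin fibroblasts also release chemokines and complement proteins. A spot is a small region that can hold several of these cells together with vessels, nerves, hair follicles or muscle.

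The S1pr2fl/fl set held 364688 UMIs, with 531 UMIs in its shallowest spot, a median of 3380 and a maximum of 11835. The K14-Cre set held 378490 UMIs, with 700, 2767.5 and 15942. The 6 genes took 3.80% of the UMIs of the S1pr2fl/fl set and 5.19% of the K14-Cre set, against 1.26% and 1.41% in the remaining spots, which is the selection itself. The lowest share inside the set was 3.28% in the S1pr2fl/fl section and 3.63% in the K14-Cre section, and the spots just outside stood at 3.28% and 3.63% as well (3.27841% against 3.27565%, and 3.63048% against 3.62727%), so the sets have no natural edge. The sections shared 357 barcodes, which mark the same array positions, and none of these, 0 in all, was collagen-rich in both sections.

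On the capture area the collagen-rich spots lay along most of the length of the S1pr2fl/fl section and formed 24 connected groups, the largest with 24 and 23 spots, and 11 spots had no neighbour in the set. Of the neighbouring tissue positions of a collagen-rich spot, 38.9% were collagen-rich themselves, where 9.12% of all spots that passed the minimum were. The K14-Cre set formed 20 groups, the largest with 29 and 20 spots, with 50.3% of neighbouring positions collagen-rich against 10.6% of all spots. The 100 spots with the highest share of keratinocyte markers served as epidermis-rich spots, and the collagen-rich spots lay a median of 5 array steps from the nearest of them in the S1pr2fl/fl section (1 to 18) and 4 in the K14-Cre section (1 to 10), while the remaining spots lay a median of 4 steps away in both. No collagen-rich spot was among the 100 spots richest in keratinocyte markers or in adult muscle markers of its section (0 and 0 in both), whereas 26 in the S1pr2fl/fl section and 20 in the K14-Cre section were among the 100 richest in fascia fibroblast genes.

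**Figure D1:**
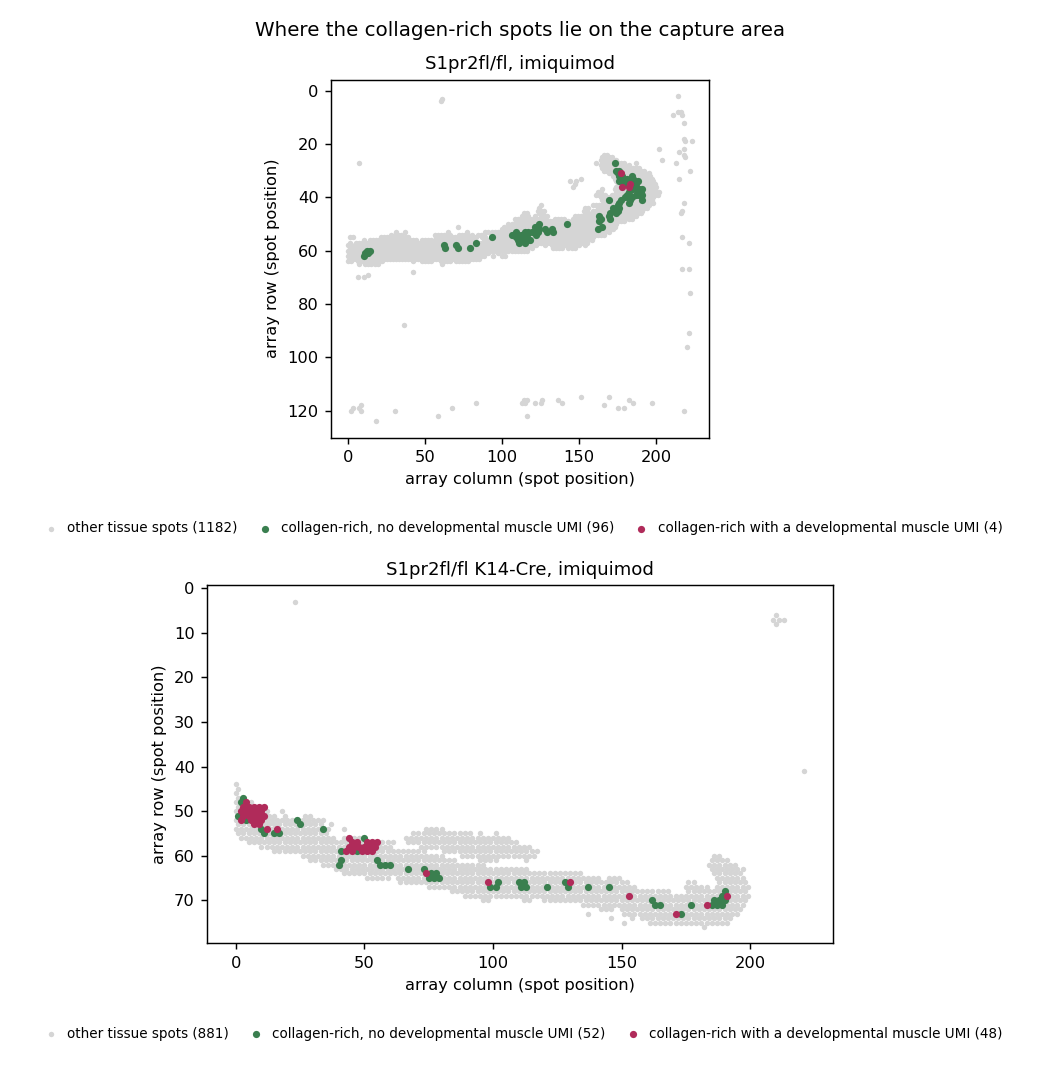
Position of the collagen-rich spots on the array (horizontal, array column; vertical, array row) in the S1pr2fl/fl section and the S1pr2fl/fl K14-Cre section; each point is a spot over tissue. Of the 100 collagen-rich spots, 4 in the S1pr2fl/fl section and 48 in the K14-Cre section held a UMI of a developmental muscle gene, 23 of the latter in patch 1 at the left end of the section and 17 in patch 2 to its right.

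The label of dermis held only in part. Many matrix genes were higher in both sets than in the remaining spots, fewer fibroblast markers were, and the spots were not free of other tissue. In the S1pr2fl/fl set keratinocyte markers made up 2.88% of the UMIs, and Krt14, a keratin of basal keratinocytes, was found in 100 of 100 spots. In the same section they made up 1.74% of the UMIs in the adult muscle-rich spots and 6.84% in all remaining spots. In the K14-Cre set keratinocyte markers made up 0.412%, while adult skeletal muscle markers made up 3.60%, against 0.470% in the S1pr2fl/fl set. The sets are therefore called collagen-rich spots and not dermis. In every list below, fewer cells of a type and less RNA per cell cannot be told apart.

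Muscle was the main other tissue in the K14-Cre set. The 10 adult muscle markers summed to 35951 CPM there and 4700 CPM in the S1pr2fl/fl set, a log2 ratio of 2.94 (2.86 to 3.01) against 1.82 in the remaining spots, and all 9 counted were at least 2-fold higher. The most abundant was Acta1, skeletal muscle actin, with 4201 and 573 UMIs, and none of the 10 was at 0 in either set. In both sections the adult markers were still lower in the collagen-rich than in the remaining spots, at 4700 against 20353 CPM in the S1pr2fl/fl section and 35951 against 71877 CPM in the K14-Cre section. The developmental muscle list holds genes of embryonic and regenerating fibres, of which Tnni1 and Tnnc1 are also expressed in adult slow fibres. Its sum was 2663 CPM in the K14-Cre set, the most abundant gene being Myh8. In the S1pr2fl/fl set the sum was 24.7 CPM, led by Myog with 5 UMIs, and Tnni1, Myh3, Myh8 and Tnnc1 were at 0. The log2 ratio of the sum between the sections was 6.75 in the collagen-rich and 3.25 in the remaining spots.

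Myh8, the perinatal myosin heavy chain, had 318 UMIs in 38 of the 100 K14-Cre spots and 0 in the S1pr2fl/fl set, so it was at least 102-fold higher, taking 3 counts over the set for a count of 0. Myh3, the embryonic myosin, was at least 43.7-fold higher with 136 UMIs. In the K14-Cre section all 6 of 6 developmental markers were at least 2-fold higher in the collagen-rich than in the remaining spots, with a median log2 ratio of 3.39. They had too few UMIs to be counted in the S1pr2fl/fl section.

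These genes lay in 2 patches. Patch 1 of the K14-Cre set, 29 spots in array columns 1 to 12 and rows 47 to 55, held 51.4% of the UMIs of the set and 4412 CPM of developmental muscle markers. Patch 2, with 20 spots, held 16.9% of the UMIs and 1938 CPM, and the other 51 spots held 217 CPM. Spots with a developmental muscle UMI were deeper, with a median of 4142.5 UMIs against 1930 in the 52 without one, so some of the latter may have held such RNA below detection. The 6 selecting genes were highest in the same place, with a median share of 5.41% in patch 1, 4.50% in patch 2 and 4.14% in the other spots. The part of depth, muscle and place along the section in the other differences was not tested. Values are therefore also given for the spots without a developmental muscle UMI, 96 in the S1pr2fl/fl section and 52 in the K14-Cre section. The spots left out are called developmental-muscle spots, although any UMI of the list was enough to leave a spot out. Of the 100 adult muscle-rich spots, 18 in the S1pr2fl/fl section and 35 in the K14-Cre section also held such a UMI. The spots that were kept were not free of muscle. Adult muscle markers stood at 17746 CPM in the 52 K14-Cre spots and 4814 CPM in the 96 S1pr2fl/fl spots, a log2 ratio of 1.88, with 657 and 544 UMIs of Acta1.

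**Figure D2:**
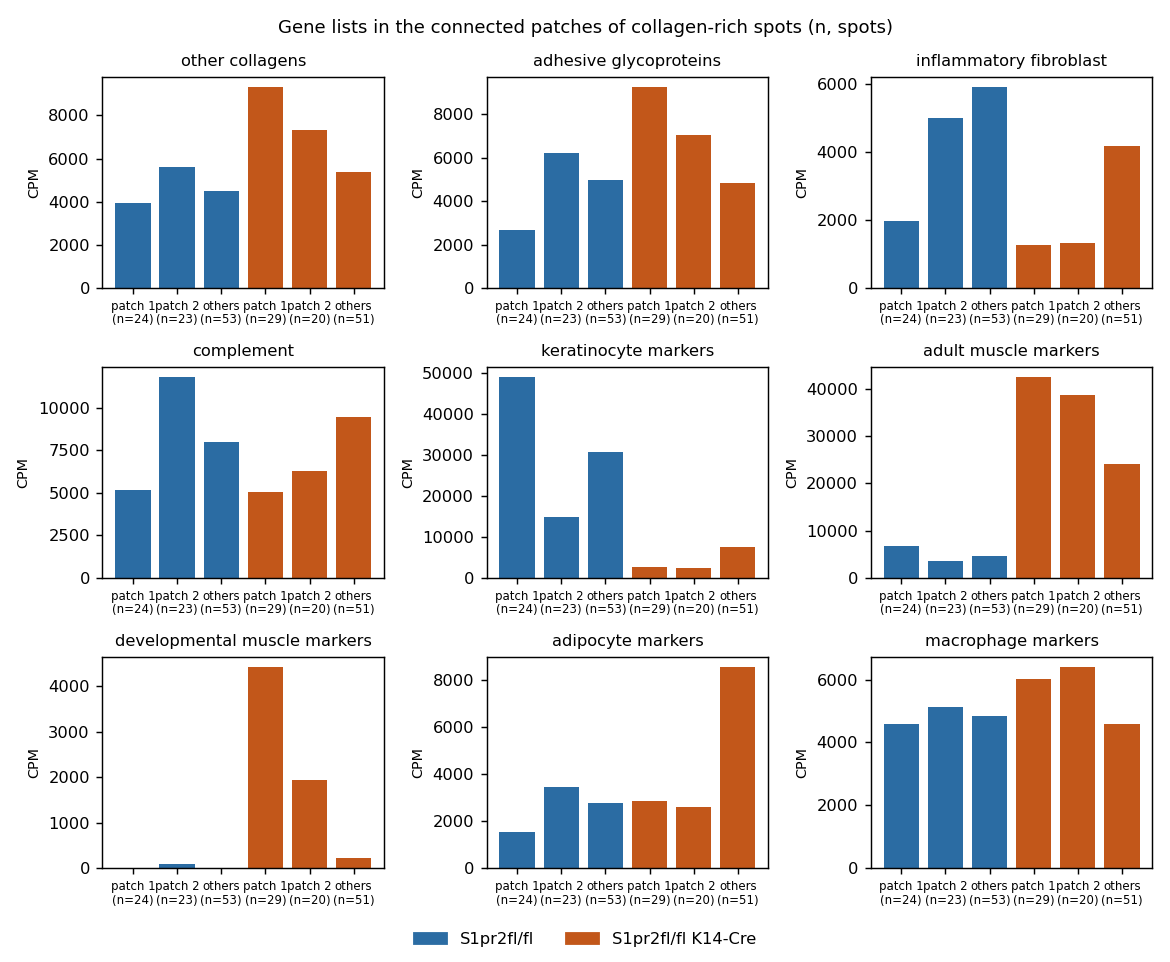
Summed CPM of 9 gene lists (vertical, from 0, a scale of its own in each panel) in the 2 largest connected patches and in the other collagen-rich spots of the S1pr2fl/fl section (blue) and the S1pr2fl/fl K14-Cre section (orange); n is the number of spots and there are no replicates. Developmental muscle markers and the highest levels of other collagens and adhesive glycoproteins stood in patches 1 and 2 of the K14-Cre section, and the highest levels of fat cell markers in its other spots.

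The 6 selecting genes did not stand in the same proportion in the sections. Col3a1, which encodes the chain of type III collagen, led in both sets with 5398 UMIs in the S1pr2fl/fl set and 6901 in the K14-Cre set. Spots ranged from 6623 over a median of 14379 to 33808 CPM for Col3a1 in the S1pr2fl/fl set and from 2608 over 17688 to 31576 CPM in the K14-Cre set, and the ranges overlapped widely. Col1a1, a chain of type I collagen, ranged from 2894 over 7953 to 30591 CPM and from 485 over 10013 to 26845 CPM. Of the UMIs of the 6 genes, Col1a1 made up 20.9% in the S1pr2fl/fl set and 25.1% in the K14-Cre set, and Col1a2, the partner chain of type I collagen, 25.7% and 31.8%. The share of Dcn (decorin) was 6.41% and 2.60%, and that of Lum (lumican) 3.54% and 1.41%. Both are small proteoglycans that bind collagen fibrils.

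Between the sets, the log2 ratio of K14-Cre over S1pr2fl/fl was 0.71 for Col1a1 (0.65 to 0.78), 0.76 for Col1a2 and 0.30 for Col3a1. It was -0.85 for Dcn (-1.01 to -0.69), whose spots ran from 0 over a median of 2196 to 6683 CPM in the S1pr2fl/fl set and from 0 over 1296 to 9081 CPM in the K14-Cre set, and -0.88 for Lum (-1.10 to -0.67). In the remaining spots the ratio was 0.17 for Col1a1 and -0.22 for Dcn. Sparc, a matrix protein that binds collagen, had a ratio of 0.27. The choice of the spots used all of these genes, so their values are a description, and they moved with the developmental-muscle spots. Without those spots Dcn stood at -0.22, Lum at -0.22, Col1a1 at 0.15 and Sparc at -0.26.

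Against the remaining spots of the same section, 1179 (10.9%) of the 10772 genes that had 50 or more UMIs in the section stood at least 2-fold higher in the S1pr2fl/fl collagen-rich spots and 864 (8.02%) at least 2-fold lower. In the K14-Cre section 851 of 9517 (8.94%) were higher and 969 (10.2%) lower. Both sections shared 248 higher genes of 9096 counted in both (2.73%), which is 21.0% of the S1pr2fl/fl genes and 29.1% of the K14-Cre genes. The median log2 ratio over all genes was 0.15 in the S1pr2fl/fl section and 0.08 in the K14-Cre section. These contrasts share the spots that the selection used, so they describe the sets and test nothing. With the TMM factor of edgeR, which shifted the ratios by 0.27 on the log2 scale in the S1pr2fl/fl section, 548 genes were higher and 1377 lower there, so that 28.5% of the calls were higher in place of 57.7%. In the K14-Cre section, with a shift of 0.10, 655 genes were higher and 1108 lower, 37.2% of the calls against 46.8%. In the 52 K14-Cre spots without a developmental muscle UMI, 1357 of 8981 genes were higher.

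Of 14 counted genes of the list of other collagens, 7 were at least 2-fold higher in the S1pr2fl/fl set (median log2 ratio 1.13) and 12 in the K14-Cre set (median 1.70). With the TMM factor these counts were 4 and 11, and without the developmental-muscle spots 6 of the 14 were at 2-fold or more in the K14-Cre section. Col5a2, a chain of type V collagen that is built into type I fibrils, was at 861 CPM in the S1pr2fl/fl set against 360 CPM in its remaining spots and at 1432 against 354 CPM in the K14-Cre section. Col6a3, of the beaded-filament collagen VI, had log2 ratios of 1.13 and 1.70. Col14a1, a collagen that attaches to fibril surfaces, had 1.96 and 1.22. Without the developmental-muscle spots the K14-Cre ratio was 1.19 for Col5a2, 0.78 for Col6a3 (0.43 to 1.09) and -0.48 for Col14a1, on 12 UMIs (-1.51 to 0.28). The basement membrane chain Col4a1 had 1.46 in the S1pr2fl/fl section and 0.39 in the K14-Cre section, so it did not pass 2-fold in the latter.

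Of 17 counted genes of collagen processing, 11 were at least 2-fold higher in the S1pr2fl/fl set and 10 in the K14-Cre set, with median log2 ratios of 1.14 and 1.15, with the TMM factor 5 and 9, and without the developmental-muscle spots 7 in the K14-Cre section. Among them, Serpinh1, the chaperone of procollagen, had log2 ratios of 1.11 and 1.19, Pcolce, which promotes the removal of the C-terminal propeptide, 1.27 and 1.11, and Loxl1, a lysyl oxidase that cross-links matrix fibres, 1.26 and 1.51. P4hb, a subunit of the prolyl hydroxylase that also acts in general protein folding, stood at 0.09 and 0.32. Adamts2, the protease that removes the N-terminal propeptide, was at 1.52 in the S1pr2fl/fl section and 0.42 in the K14-Cre section. In the 52 K14-Cre spots without a developmental muscle UMI Serpinh1 stood at 0.88 and Adamts2 at 1.05 (0.43 to 1.59).

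Of 15 counted elastic fibre genes, 7 were at least 2-fold higher in the S1pr2fl/fl set and 8 in the K14-Cre set. Fbn1, the fibrillin of the microfibrils, had log2 ratios of 1.37 and 1.60, and Eln, elastin itself, 0.89 and 1.67. In the K14-Cre spots without a developmental muscle UMI, Fbn1 stood at 1.23 and Eln at 0.05 (-0.59 to 0.58). Proteoglycans other than decorin and lumican gave 8 of 9 counted genes in the S1pr2fl/fl set and 3 of 8 in the K14-Cre set. Bgn (biglycan) was at 1.29 and 1.64, the latter 0.80 without the developmental-muscle spots, whereas Ogn (osteoglycin) was at 1.75 and 0.55 and Podn (podocan) at 1.30 and 0.02. Genes of matrix turnover gave 7 and 6 of 13, or 4 and 4 with the TMM factor, and 9 in the K14-Cre section without the developmental-muscle spots. Mmp2, a gelatinase, had 1.43 and 1.22, and Mmp3, the stromelysin of activated fibroblasts, 1.46 and 0.16, of which the latter became 1.01 (0.65 to 1.33) in that step.

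Of 15 counted genes of adhesive glycoproteins, 5 were at least 2-fold higher in the S1pr2fl/fl set and 11 in the K14-Cre set, or 6 without the developmental-muscle spots. Postn (periostin), a glycoprotein of healing and mechanically loaded connective tissue, was at 107 CPM in the S1pr2fl/fl set against 78.8 CPM in its remaining spots, and at 518 against 50.9 CPM in the K14-Cre section, log2 ratios of 0.46 (-0.07 to 0.92) and 3.35 (3.02 to 3.68). It was found in 26 of 100 spots and 39 of 100 spots, with a maximum of 913 and 2802 CPM in a spot and a median of 0 in both sets. Tnc (tenascin C), which is expressed in wounds and at tendon junctions, had log2 ratios of 0.36 and 2.83. Its spots ran from 0 over 245 to 3814 CPM in the S1pr2fl/fl set and from 0 over 263 to 7846 CPM in the K14-Cre set. The medians were alike and the highest spots differed. Fn1 (fibronectin) was higher in both, at 1.28 and 2.06. When the developmental-muscle spots were left out, the K14-Cre ratios were 0.41 for Postn (-0.92 to 1.35), 1.26 for Tnc and 1.24 for Fn1, and Thbs4, which had 1.97 with all spots, turned to -3.07 on 2 UMIs.

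Of 10 counted fibroblast identity genes, 3 were at least 2-fold higher in the S1pr2fl/fl set, or 1 with the TMM factor, and 2 in the K14-Cre set. Pdgfra, the platelet-derived growth factor receptor of fibroblasts, had log2 ratios of 1.42 and 0.48, Cd34 1.23 and 0.17, and Thy1 0.55 and 1.44. The fascia fibroblast list gave 7 of 10 in the S1pr2fl/fl set, or 4 with the TMM factor, and 2 of 10 in the K14-Cre set. Of its genes Cd248 was high in both (1.57 and 1.47), and Pi16, a marker of fascia and universal fibroblasts, only passed 2-fold in the S1pr2fl/fl section (1.40 and 0.24). Reticular genes gave 4 of 7 and 3 of 10, led by Gpx3, a secreted glutathione peroxidase, at 1.69 and 0.45, and without the developmental-muscle spots 0 of 10 were past 2-fold in the K14-Cre section. Papillary genes gave 2 of 10 and 0 of 7.

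Of 11 counted inflammatory genes 8 were at least 2-fold higher in the S1pr2fl/fl set, and of 15 counted in the K14-Cre section 1 was. Of 11 complement genes, 9 were in the S1pr2fl/fl section and 1 in the K14-Cre section, with median log2 ratios of 1.28 and 0.36. With the TMM factor the S1pr2fl/fl counts were 6 and 6, and the K14-Cre counts were 1 and 1. Without the developmental-muscle spots 5 of 15 inflammatory and 5 of 11 complement genes were at least 2-fold higher in the K14-Cre section. Ccl11 (eotaxin), a chemokine of fibroblasts that attracts eosinophils, was at 145 CPM against 29.3 CPM in the S1pr2fl/fl section and at 15.9 against 36.6 CPM in the K14-Cre section, where it rested on 6 UMIs. C3, the central complement component, had log2 ratios of 1.38 (1.23 to 1.52) and -0.29 (-0.50 to -0.09), and C4b 1.48 and 0.36. Without those spots the K14-Cre ratio was 0.47 for C3, 1.22 for C4b and 0.25 for Ccl11, on 5 UMIs (-1.54 to 1.40). Cxcl12, a chemokine made by many stromal cells, had 1.59 and 1.57. Complement genes took 0.862% of the UMIs of the S1pr2fl/fl set and 0.667% of the K14-Cre set, and more in the fascia fibroblast-rich spots, the 100 with the highest share of fascia genes in each section, 0.904% and 0.898%.

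Of 9 counted macrophage markers, 7 were at least 2-fold higher in the S1pr2fl/fl set and 6 in the K14-Cre set, with the TMM factor 2 and 3, and without the developmental-muscle spots 4 in the K14-Cre section, where C1qa then stood at 0.82. C1qa, a chain of complement C1q that macrophages produce, had log2 ratios of 1.32 and 1.36 and was found in 80 of 100 and 85 of 100 spots, where 63.8% and 49.0% of the remaining spots held it. The mannose receptor Mrc1 had 1.36 and 1.14, and Csf1r, the receptor for the growth factor of macrophages, 1.23 and 1.04. Lyz2, a usual myeloid marker, had only 5 and 4 UMIs. The fascia fibroblast-rich spots held similar shares of UMIs of the whole list, 0.469% against 0.488% in the S1pr2fl/fl section and 0.483% against 0.564% in the K14-Cre section. The dendritic cell marker Itgax was at 2 and 0 UMIs.

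In the S1pr2fl/fl section 5 of 5 counted nerve markers were at least 2-fold higher in the collagen-rich than in the remaining spots, and 0 of 5 in the K14-Cre section, or 3 of 5 without the developmental-muscle spots. With the TMM factor the counts were 2 and 0. The 6 nerve markers summed to a log2 ratio over the remaining spots of 1.39 (1.20 to 1.58) in the S1pr2fl/fl section and 0.45 (0.27 to 0.63) in the K14-Cre section. With all spots their summed level in the K14-Cre set was no lower, at 819 CPM against 771 CPM, a log2 ratio of 0.09. The ratio between the sets was 0.71 without the developmental-muscle spots, 0.51 without the largest patch and -0.21 in spots of low muscle share. The remaining spots differed more, at 598 CPM in the K14-Cre section and 293 CPM in the S1pr2fl/fl section. The mast cell protease Cma1 had 2.15 in the S1pr2fl/fl section, on 73 UMIs, and -0.29 in the K14-Cre section on 10 UMIs. Of 5 and 3 counted mast cell markers, 3 and 0 were at least 2-fold higher. The K14-Cre values without the developmental-muscle spots were 1.30 for Cma1 (0.13 to 2.19) and 2 of 3 markers. Of 6 fat cell markers, 4 were in the S1pr2fl/fl set, or 2 with the TMM factor, and 0 in the K14-Cre set, or 2 without the developmental-muscle spots. They took 0.278% of the UMIs of the S1pr2fl/fl set, less than the 0.316% of the fascia fibroblast-rich and the 0.351% of the adult muscle-rich spots of that section. Endothelial markers gave 0 of 5 and 0 of 6, hair and sebaceous markers 0 of 6 in both, T cell markers 1 of 5 and 0 of 3, and smooth muscle and pericyte markers 1 of 8 and 3 of 8. With the TMM factor the counts were 0 and 0 for T cell markers and 0 and 3 for smooth muscle and pericyte markers. Without the developmental-muscle spots the K14-Cre counts of these lists were 1 of 3 and 2 of 8.

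**Figure D3:**
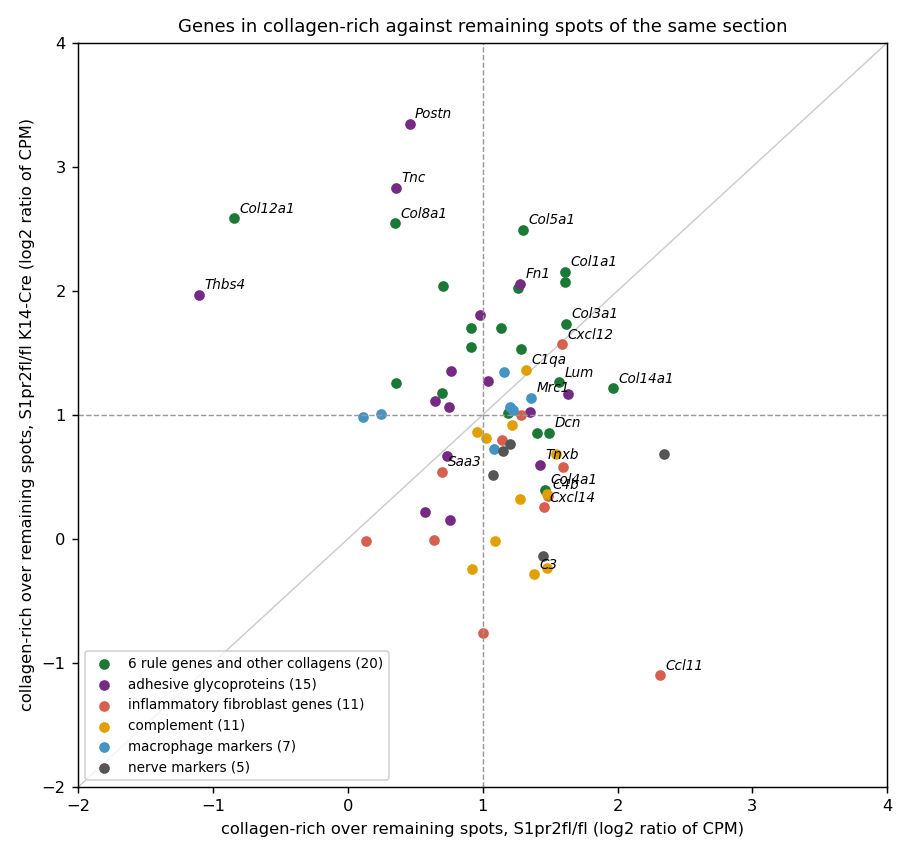
Log2 ratio of CPM between collagen-rich and remaining spots in the S1pr2fl/fl section (horizontal) and the S1pr2fl/fl K14-Cre section (vertical); each point is a gene with at least 50 UMIs in both sections, drawn under the first list that holds it. Dashed lines mark 2-fold: with all spots, Postn, Tnc, Col12a1, Col8a1 and Thbs4 passed it only in the K14-Cre section. C3, C4b, Cxcl14 and Ccl11 passed it only in the S1pr2fl/fl section. Once the developmental-muscle spots were left out, Tnc (1.26) and C4b (1.22) passed it in the K14-Cre section, and Postn, Col12a1, Col8a1 and Thbs4 did not. None of this was tested.

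Outside the lists, the 15 genes with the highest lower value of the 2 sections were Aatk, Cd180, Tmem37, Batf3, Clec11a, Gbp3, Chst2, Cdkn1c, Nrp1, Cpxm1, Srpx2, Prrx2, Fgd2, Pla2g15 and Klhl13. Cpxm1, a secreted carboxypeptidase-like protein, rested on the most UMIs of them, 397 and 150, with log2 ratios of 1.54 and 1.50. Prrx2, a homeobox gene of mesenchymal cells, had 1.49 and 1.90 on 19 and 25 UMIs. Cd180, a receptor of B cells and myeloid cells, had 1.78 and 1.94 on 19 and 30 UMIs, and Tmem37 2.52 and 1.72 on 18 and 20. In the K14-Cre section Cd180 stood at 0.41 on 3 UMIs without the developmental-muscle spots. The other genes of this group held between 12 and 48 UMIs in a set, so their order is uncertain.

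S1pr2, the receptor for sphingosine-1-phosphate that the floxed alleles concern, had 22 UMIs in the S1pr2fl/fl set and 11 in the K14-Cre set, a log2 ratio of -1.02 whose interval (-2.25 to 0.05) reached past 0. Without the developmental-muscle spots it had 19 UMIs against 0, and the upper limit of the log2 ratio was -0.76. In the remaining spots the ratio was -0.60. Which exons the probes covered was not known here, so these values do not check the deletion. Of the genes of sphingosine-1-phosphate signalling, 3 of 9 counted were at least 2-fold higher in the S1pr2fl/fl set than in its remaining spots, the receptors S1pr1, S1pr2 and S1pr3, and 0 of 8 in the K14-Cre set. With the TMM factor the former count was 0, and without the developmental-muscle spots the counts were 2 of 9 and 2 of 8. Of the 19 genes that the study followed in these sections, 4 reached 50 UMIs over both sets, and 0 of them differed by 2-fold. Il17a had 1 and 2 UMIs and Tnf 3 and 8, so a difference was not detectable at this depth.

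Between the sets themselves, 278 of 3382 genes with at least 50 UMIs over both (8.22%) were at least 2-fold higher in the K14-Cre collagen-rich spots and 394 (11.6%) at least 2-fold lower. The median log2 ratio of all these genes was -0.08. A gene that reached 50 UMIs through the set where it was high had to differ, so the counts of list members that follow are a description and support nothing about a list. When the developmental-muscle spots were left out, 105 genes were higher and 265 lower of 2000, so that 28.4% of the calls were higher in place of 41.4%. Without the largest patch of each section 136 were higher and 256 lower of 2208. The 10 highest genes by the rule stated under the methods were Myh8, Tnni1, Myh3, Thbs4, Myl4, Mybph, Casq2, Casq1, Tnnt1 and Smpx. The 10 lowest were Lor, Casp14, Rptn, Krt10, Crct1, Flg, Nccrp1, Krt1, Hba-a2 and S100a9. Most of the former are genes of muscle fibres, and Tnnt1 among them turned to -0.42 on 1 UMI against 5 without the developmental-muscle spots. The latter are genes of the epidermis with a haemoglobin gene and the calgranulin S100a9.

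The summed collagens other than the selecting ones were at 7725 CPM in the K14-Cre set against 4711 CPM, a log2 ratio of 0.71 (0.63 to 0.80) with 0.26 in the remaining spots, and 5 of 14 counted genes were at least 2-fold higher and 0 lower. Of these 5, Col12a1, Col8a1, Col5a3 and Col16a1 reached 50 UMIs only with the UMIs of the K14-Cre set. Col5a1 had 443 UMIs against 114. Its spots ran from 0 over 627 to 6459 CPM in the K14-Cre set and from 0 over 207 to 1929 CPM in the S1pr2fl/fl set, overlapping over the lower range. The log2 ratio was 1.90 (1.60 to 2.21), and 1.19 (0.77 to 1.61) without the developmental-muscle spots. Col12a1, a collagen of tendon, fascia and healing tissue, had 84 UMIs against 3, a log2 ratio of 4.54, and Col8a1, a network-forming collagen of vessels, 78 against 4, a ratio of 4.07.

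Without the developmental-muscle spots Col12a1 had 2 UMIs against 3 and Col8a1 3 against 4, so that hardly any of either gene was left to compare. The sum of the other collagens stood at a log2 ratio of 0.42 in spots of low muscle share and 0.33 without the largest patch. Without the developmental-muscle spots it stood at 0.12. Col5a2 went from 0.73 to -0.10 and Col6a3 from 0.67 to -0.25 in the latter step. Col5a3, another type V chain, had 1.83 with all spots and 1.32 (0.34 to 2.28) without. Col16a1, a collagen associated with fibril surfaces, went from 1.19 to -0.20. Col4a1 stood at -0.34 with all spots and -0.06 without.

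Adhesive glycoproteins were at 7472 CPM in the K14-Cre set against 5013 CPM, a log2 ratio of 0.58 (0.49 to 0.66), with 6 of 14 counted genes at least 2-fold higher and 0 lower. Thbs4, a thrombospondin of tendon and muscle, had 248 UMIs against 3, a log2 ratio of 6.10, and 2 against 3 without the developmental-muscle spots (0.97, with an interval that reached past 0). Postn had 196 against 39, a ratio of 2.26 (1.77 to 2.81), Tnc 533 against 195, a ratio of 1.39 (1.16 to 1.64), and Fn1 342 against 231, a ratio of 0.51. In patch 1 Postn reached 838 CPM and Tnc 2216 CPM, against 74.98 and 500 CPM in the spots outside both patches, levels in the range of the S1pr2fl/fl section. Nid2 and Ccn5, a basement membrane protein and a matricellular protein, stood at 1.51 and 2.10 with all spots and at 1.94 and 2.20 without. Mgp (matrix Gla protein) stood at 1.21 and turned to -0.32. The sum of the adhesive glycoproteins was 0.13 in spots of low muscle share and 0.073 without the largest patch. In the 96 and 52 spots without a developmental muscle UMI, the direction turned for Postn (-0.68, -2.06 to 0.38), Tnc (-0.20, -0.66 to 0.22) and Fn1 (-0.27, -0.70 to 0.13), the intervals reaching past 0, and the sum of the list stood at -0.04. Tnxb, the tenascin of the loose dermis, was lower with all spots (218 UMIs against 420, interval -1.24 to -0.76) and without those spots (-0.73, -1.10 to -0.39).

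Elastic fibre genes summed to a log2 ratio of 0.34 (0.23 to 0.46), with 3 of 11 counted genes at least 2-fold higher. Eln, with 255 UMIs against 109, was one of them at 1.17, and turned to -0.44 (-1.13 to 0.17) without the developmental-muscle spots. Emilin1 and Mfap4, both microfibril-associated, had 1.32 and 1.26, of which Mfap4 turned to -1.71 on 3 UMIs, and Emilin1 to -0.22 without the largest patch. Collagen processing as a whole differed little, with a log2 ratio of 0.11 (0.01 to 0.20). Of its 16 counted genes P4ha1, a prolyl hydroxylase subunit, was higher at 1.08 and Adamts2 lower at -1.61 (-2.08 to -1.18), and these were the genes past 2-fold. Without the developmental-muscle spots they stood at 1.30 and -0.98.

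Matrix turnover genes summed to a log2 ratio of -0.64 (-0.74 to -0.55), against -0.24 in the remaining spots, and the median of the list was -0.25. Ctsk (cathepsin K), a collagen-degrading protease of fibroblasts and macrophages, led the sum in the S1pr2fl/fl set, with 265 UMIs against 640. Its spots ran from 0 over 553 to 9054 CPM in the K14-Cre set and from 0 over 1574 to 4939 CPM in the S1pr2fl/fl set. The log2 ratio was -1.32 (-1.54 to -1.12), and -1.13 (-1.45 to -0.84) without the developmental-muscle spots. Of the 10 counted genes 1 was at least 2-fold higher and 2 lower, near the share of all genes. The latter were Ctsk and Mmp3 (-1.06, and -0.22 without those spots). Mmp2 stood at -0.94 and Mmp14, a membrane-bound protease that activates it, at -0.58. The inhibitor Timp3 was higher, at 1.29 and 1.05. Other proteoglycans summed to -0.30 with 1 of 7 genes past 2-fold, Podn, at -1.86 with 20 UMIs against 71, and -1.53 without the developmental-muscle spots.

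Inflammatory fibroblast genes summed to 2198 CPM against 5221 CPM, a log2 ratio of -1.25 (-1.37 to -1.13), with 0 of 10 counted genes at least 2-fold higher and 6 lower, and the ratio in the remaining spots was -0.79. Cxcl12 had 166 UMIs against 493. Its spots ran from 0 over 178 to 4291 CPM in the K14-Cre set and from 0 over 1024 to 6700 CPM in the S1pr2fl/fl set. Its ratio was -1.62 (-1.89 to -1.37), much as in the remaining spots (-1.60), and -1.43 without the developmental-muscle spots. Ccl11 had 6 UMIs against 53, a ratio of -3.09 (-4.71 to -1.98), with 0.32 in the remaining spots. Saa3, an acute-phase apolipoprotein, stood at -1.89, Il33, an alarmin of stromal cells, at -1.62, Il1r1, the receptor of interleukin 1, at -1.42 and Cxcl14 at -1.33. In the remaining spots Saa3 was lower too, at 288 CPM in the K14-Cre section against 959 CPM in the S1pr2fl/fl section. Il33 was there at 65.1 against 128 CPM, Il1r1 at 59.0 against 72.1 CPM and Cxcl14 at 129 against 142 CPM. In the 96 and 52 spots without a developmental muscle UMI, the list stood at -0.61, Ccl11 at -1.74, Saa3 at -0.88, Il33 at -1.98 on 6 UMIs, Il1r1 at -1.25 and Cxcl14 at -0.32.

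Complement genes summed to 6671 CPM against 8618 CPM, a log2 ratio of -0.37 (-0.45 to -0.29), while in the remaining spots the sum was higher in the K14-Cre section, at 0.42. The most abundant gene of the list was Cfd in the S1pr2fl/fl set, with 661 of 3143 UMIs, and C1qa in the K14-Cre set, with 655 of 2525. C1qa is also in the macrophage list and stood at 0.64, so the sum was not of fibroblast genes alone. Of 10 counted genes 5 were at least 2-fold lower, among them C1ra, a protease of the classical pathway, at -1.71, C4b at -1.54, C3 at -1.20 and Serping1, the inhibitor of C1, at -1.04. C3 had 218 UMIs against 482. Its spots ran from 0 over 239 to 7568 CPM in the K14-Cre set and from 0 over 890 to 4688 CPM in the S1pr2fl/fl set. When the developmental-muscle spots were left out, C3 stood at -0.39 (-0.70 to -0.11) and C4b at -0.69 (-0.99 to -0.41). C1ra was then at -1.73 on 8 UMIs and Serping1 at -0.30 (-0.69 to 0.07), and the sum of the list turned to 0.02. The complement sum was -0.27 in spots of low muscle share and -0.12 without the largest patch. Within the K14-Cre section C3 was at 216 CPM in patch 1, 625 CPM in patch 2 and 1133 CPM in the other spots.

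The TGF-beta axis, the signal that drives matrix synthesis in fibroblasts, had 7 counted genes, of which 1 was at least 2-fold higher and 1 lower. Tgfb3, a ligand, had 108 UMIs against 13, in 33 and 10 spots, a log2 ratio of 2.95 (2.17 to 3.96) with 0.48 in the remaining spots. Without the developmental-muscle spots it stood at 2.10 (1.00 to 3.30) on 19 and 12 UMIs. Skil, a repressor of the pathway's transcription factors, had 19 UMIs against 45, a ratio of -1.28, and -1.42 without those spots. The receptors Tgfbr2 and Tgfbr3 stood at -0.94 and -0.99, under 2-fold. Of the fibroblast genes, Thy1 was higher at 1.07 (0.57 to 1.61), and Pdgfra was lower at -1.01 and Pi16 at -1.38. Ly6a, the stem cell antigen Sca-1, had 9 UMIs against 40, a ratio of -2.15. When the developmental-muscle spots were left out, these stood at 1.25, -0.95, -0.75 and -1.14. Thy1 turned to -0.13 with spots ranked by Dcn, Lum and Sparc alone. Mest, an imprinted gene high in embryonic mesenchyme, had 47 UMIs against 1, and 1 against 1 without the developmental-muscle spots.

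**Figure D4:**
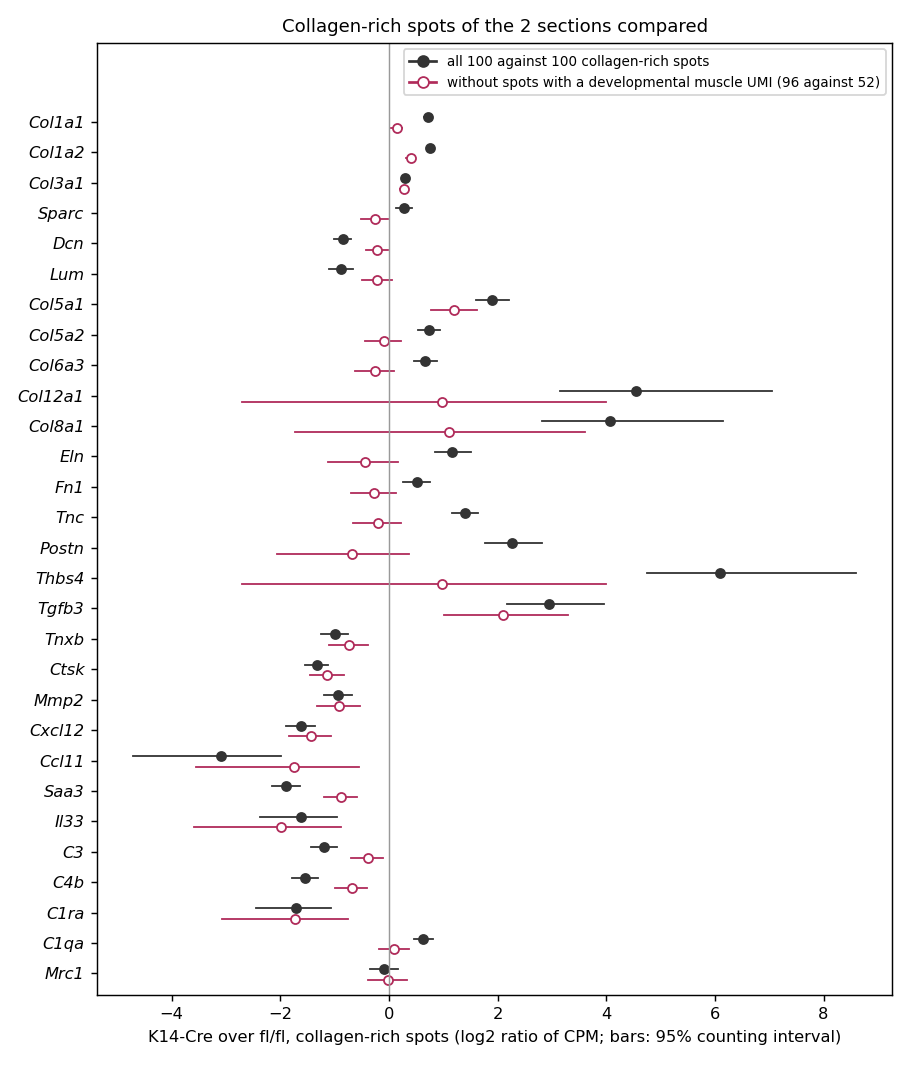
Log2 ratio of CPM between the collagen-rich spots of the S1pr2fl/fl K14-Cre and S1pr2fl/fl sections (horizontal) for 29 genes (vertical), with all 100 spots of each (filled) and without the spots that held a developmental muscle UMI (open, 96 against 52 spots); bars are 95% counting intervals of 1 section per genotype. Postn, Tnc, Fn1 and Eln crossed 0 without those spots, whereas Col5a1 and Tgfb3 stayed above 0 and Tnxb, Ctsk, Cxcl12 and Ccl11 below it.

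Macrophage markers differed little between the sets, with 0 of 9 past 2-fold in either direction and a log2 ratio of the sum of 0.21 (0.12 to 0.30). C1qa stood at 0.64 and Mrc1 at -0.09, and the interval of the latter was -0.34 to 0.17. Without the developmental-muscle spots the sum of the macrophage markers turned to -0.052, and C1qa stood at 0.10 (-0.19 to 0.37). The macrophage sum was 0.50 in spots of low muscle share and 0.086 without the largest patch. Keratinocyte markers were lower, at 4122 CPM against 28822 CPM, a ratio of -2.81 (-2.88 to -2.73), with 11 of 11 counted genes past 2-fold, and they were lower in the remaining spots too (-1.62), and without the developmental-muscle spots (-1.84). Their part in the other differences was not tested. Krt14 was the most abundant of the 15 in both sets, and none was at 0. Krt10, the keratin of the layers above the basal one, had 57 UMIs against 978. Its spots ran from 0 over 0 to 3083 CPM in the K14-Cre set and from 0 over 1994 to 27277 CPM in the S1pr2fl/fl set, and reached 10022 CPM in patch 1 of the latter, where the sum of the keratinocyte markers was also highest.

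Neutrophil markers were at 695 CPM against 5204 CPM, a log2 ratio of -2.90, with -2.19 in the remaining spots, and of -1.87 without the developmental-muscle spots. Most of these UMIs were of S100a8 and S100a9, which keratinocytes of inflamed skin also express. The other markers were low in both sets. Csf3r had 11 UMIs in the K14-Cre set and 16 in the S1pr2fl/fl set, Mmp8 3 and 6, Cxcr2 5 and 2, Retnlg 1 and 0, and Ltf 3 and 0. Blood markers were at 713 CPM against 2608 CPM (-1.87, and -1.34 in the remaining spots). Smooth muscle and pericyte markers were at 2658 CPM against 987 CPM (1.43, and 0.95 in the remaining spots), led by Des, a filament protein that skeletal muscle shares. The ratio of this sum was 0.67 without the developmental-muscle spots, 0.84 in spots of low muscle share and 1.55 without the largest patch. Hba-a2, a haemoglobin chain, had 24 UMIs against 286, and in the S1pr2fl/fl section blood markers stood at 6885 CPM in patch 2 against 575 CPM in patch 1. Receptor genes of smell and taste, 1226 in number and not expected in skin, summed to 3713 CPM in the S1pr2fl/fl set and 7739 CPM in the K14-Cre set, a log2 ratio of 1.06 with 1.46 in the remaining spots. This measure of background per UMI was thus higher in the K14-Cre section in both kinds of spots. Its part in the other differences was not tested, beyond the alternative that takes it off.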

How the data were processed

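The authors made Visium CytAssist libraries from fixed, paraffin-embedded sections. What they deposited are UMI counts, raw and not normalized, for every gene at every spot. The file header names Space Ranger 3.0.0, the submitters' processing notes name mm10, and the study's methods name Partek Flow. Genes kept the symbols of the files, and Actc1, C1s1, Ccl19, Hba-a1, Myod1 and Twist2 were not analysed here. Some list genes are not reported by name here.

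UMIs were summed over spots in Python 3.11.15 with numpy 2.4.6, scipy 1.17.1 and pandas 2.3.3. Log2 ratios of a gene used a pseudocount of 0.5 UMIs, those of list sums none. A gene was counted with at least 50 UMIs and called at 2-fold. Spots are not replicates, no doublet caller was run, and ratios and intervals were checked on simulated counts. TMM factors came from edgeR 4.0.16 in R 4.3.3. Members and 29 gene lists were chosen with earlier results of these data known. Named were the 6 selecting genes, list genes, the 15 highest outside the lists in both sections, and the 10 highest and 10 lowest between sections among 819 genes with at least 100 UMIs and 1 direction under every planned choice of spots. The spots with a developmental muscle UMI and the largest patches were left out as alternatives added after seeing the data.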

Additional observations from a re-analysis of the deposited data

Results flagged for a closer look

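The fat cell markers moved in opposite directions against the remaining spots of their own section. Their summed UMIs had a log2 ratio of collagen-rich over remaining spots of 0.79 in the S1pr2fl/fl section and -0.40 in the S1pr2fl/fl K14-Cre section, and the difference was not tested, since there was 1 section per genotype. The level in the collagen-rich spots was higher in the K14-Cre section, at 4618 CPM against 2783 CPM, and the level in its remaining spots was higher still, at 6077 CPM against 1612 CPM. Car3, a carbonic anhydrase that fat and muscle both express, was the most abundant marker in both sets. It held 1242 of the 1748 UMIs of the list in the K14-Cre set and 427 of 1015 in the S1pr2fl/fl set. Between the sets, 1 of the 5 counted markers was at least 2-fold higher and 1 lower. The median log2 ratio of the list was -0.53, so most of its genes were lower in the K14-Cre set although the sum was higher. The negative value of the K14-Cre section became 0.13 without the spots that held a developmental muscle UMI and 0.09 without the largest patch.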

How the results depend on the processing

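No paired analysis was possible because there was 1 section per genotype. Ratios of lists and of named genes were recomputed under 14 alternatives, and the counts of all genes under 17. Turned means that a ratio whose interval excluded 0 lay on the other side of it. A ratio whose interval held 0, such as that of S1pr2 between the sets, could therefore not turn. With such ratios among them, 232 of the 268 ratios did not turn, and 61 of 3745 values did. Without the spots that held a developmental muscle UMI these were, for K14-Cre over S1pr2fl/fl, collagen processing -0.032, adhesive glycoproteins -0.042, complement 0.015, macrophage markers -0.052, Sparc -0.26, Col5a2 -0.10, Col6a3 -0.25, Col16a1 -0.20, Eln -0.44, Mfap4 -1.71, Fn1 -0.27, Tnc -0.20, Postn -0.68, Mgp -0.32 and Tnnt1 -0.42, and without the largest patch Col6a3 -0.075, Emilin1 -0.22, Mfap4 -0.22 and Tnc -0.068. Fat cell markers over the remaining K14-Cre spots turned to 0.13 and 0.090 there, to 0.00064 with the 200 highest spots and to 0.14 with spots ranked by Dcn, Lum and Sparc alone. That ranking also turned collagen processing (-0.13), reticular fibroblast genes (0.028), macrophage markers (-0.054), Col16a1 (-0.063), Col4a1 (0.14), Thy1 (-0.13), Cd34 (0.11) and Ackr3 (0.089). Spots of low muscle share turned collagen processing (-0.036), Sparc (-0.032), Tnc (-0.012) and Mgp (-0.58). The 200 highest spots turned collagen processing (-0.0069), the mean over spots Sparc (-0.032), and thinning to 500 UMIs per spot Col6a3 (-0.062), Emilin1 (-0.89) and Serping1 (0.18). Nerve markers over the remaining K14-Cre spots were -0.20 with the 50 highest spots. Among the single genes recomputed over the remaining K14-Cre spots, which left out Ackr3 and the genes of muscle fibres, Col14a1 (-0.48), Col12a1 (-0.90), Col8a1 (-0.35), P4hb (-0.11), Thbs4 (-3.07), Ccl11 (0.25) and C3 (0.47) turned without the spots that held a developmental muscle UMI. C3 also turned without the largest patch (0.45), with the 200 highest spots (0.39), spots ranked by Dcn, Lum and Sparc (0.69), thinning (0.19) and the mean over spots (0.066). That ranking turned Ccl11 (0.076) and S1pr1 (0.018), low muscle share Thbs4 (-0.56), thinning Ogn (-0.051) and the 50 highest spots C4b (-0.28). Over the remaining S1pr2fl/fl spots thinning turned Tnc (-0.31) and Cd180 (-1.33), and the 50 highest spots Cd180 (-0.10). The causes were not tested.

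Genes at least 2-fold higher than in the remaining spots numbered 1179 in the S1pr2fl/fl section and 851 in the K14-Cre section. They numbered 196 and 171 when spots were thinned, 2269 and 1896 with at least 20 UMIs, 719 and 405 with at least 100, and 4321 and 2966 with no minimum, which admits fewer or more genes. The TMM factor left 548 in the S1pr2fl/fl section, and the K14-Cre section had 1290 with spots of low muscle share and 1357 without developmental muscle. Between the sections, 278 higher and 394 lower genes became 22 and 33 when thinned, 793 and 1096 at 20 UMIs, 119 and 162 at 100 UMIs, 5075 and 2995 with no minimum, 169 and 180 with the 50 highest spots, 111 and 228 at low muscle share, and 136 and 256 without the largest patch. Without developmental muscle 105 were higher, and with the 200 highest spots 669 were lower. Of the calls, 41.4% were higher, against 32.7% at low muscle share, 28.4% without developmental muscle and 62.9% with no minimum. Spots in connected groups of tissue were all 100 of each set, so that choice changed nothing, and the developmental muscle list had no ratio once its spots were left out. Depth limits genes of under 50 UMIs, whose order is uncertain.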
